A study of Mus musculus with 4 samples.

Results

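Retinoic acid synthesis, binding and breakdown were followed through 9 genes of mouse embryonic stem cells: the retinol dehydrogenase Rdh10, the retinaldehyde reductase Dhrs3, the retinaldehyde dehydrogenases Aldh1a1, Aldh1a2 and Aldh1a3, the binding proteins Crabp1 and Crabp2, and the hydroxylases Cyp26a1 and Cyp26b1. These 9 were taken by symbol from the 55401 genes of the deposited tables, through the GENCODE M21 annotation of GRCm38, and each symbol matched 1 gene. The study asked how cells that express NUP98-HOXA9, a fusion of the nucleoporin NUP98 with the homeodomain factor HOXA9 known from acute myeloid leukaemia, differ in gene expression. It holds 4 poly(A) RNA libraries. The fusion group has 2 libraries of EB3-derived cells with the genotype NUP98-HOXA9 (libraries 1 and 2), and the wild-type group has 1 library of the parental EB3 line (genotype WT) and 1 of EB3-derived cells with an empty vector (genotype WT(empty vec)). All cells were grown on gelatin with serum and LIF, the cytokine that holds such cells undifferentiated. No retinoid is named among the medium's additions in the labels. The labels name neither the vector nor its promoter, and leave unstated whether libraries 1 and 2 come from different clones or from 1 line grown in parallel. The p-values therefore cover the spread among these 4 libraries and no more.

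Cells make retinoic acid from retinol (vitamin A) in a pair of oxidations: retinol dehydrogenases such as RDH10 give retinaldehyde, and the ALDH1A enzymes turn it into retinoic acid. DHRS3 runs the first step backwards, from retinaldehyde to retinol. CRABP1 and CRABP2 carry retinoic acid in the cytoplasm, CRABP2 towards the nuclear receptors, and the CYP26 enzymes hydroxylate it for removal. Retinoic acid bound to its receptors drives embryonic stem cells out of the undifferentiated state and switches on the 3′ Hox genes, and Cyp26a1 and Dhrs3 are themselves known as targets of the acid.

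The promoters of the 3 genes that the results below turn on are shown because retinoic acid receptors bind direct repeats of a short hexamer next to some of their targets. RefSeq promoter windows (GRCm38.p6, 250 bases before to 50 after a gene's start) were found for 6 of the 9 genes. The letters searched on both strands were the hexamer AGGTCA, its variant AGTTCA, its variant GGGTCA and the doubly changed form GGTTCA, and pairs of them in the same direction with 1, 2 or 5 bases between (DR1, DR2, DR5), which contain the hexamers by construction. The 250 bases before the start are printed 5′ to 3′ on the plus strand, the strand of all 3 genes, for Cyp26a1 (chr19:37697558-37697807), Aldh1a2 (chr9:71215539-71215788) and the first of 3 listed starts of Dhrs3 (chr4:144892577-144892826), with any match in capitals.
Cyp26a1: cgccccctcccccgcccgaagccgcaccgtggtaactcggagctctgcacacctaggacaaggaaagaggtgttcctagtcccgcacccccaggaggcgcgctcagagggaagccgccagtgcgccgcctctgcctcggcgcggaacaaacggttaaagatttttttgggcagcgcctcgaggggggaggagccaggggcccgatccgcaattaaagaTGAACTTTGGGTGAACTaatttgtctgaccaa
Aldh1a2: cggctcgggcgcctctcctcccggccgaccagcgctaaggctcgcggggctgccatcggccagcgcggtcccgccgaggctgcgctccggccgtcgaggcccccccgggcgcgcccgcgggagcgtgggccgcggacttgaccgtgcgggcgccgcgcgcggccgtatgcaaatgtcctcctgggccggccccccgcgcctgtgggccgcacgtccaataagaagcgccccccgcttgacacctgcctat
Dhrs3: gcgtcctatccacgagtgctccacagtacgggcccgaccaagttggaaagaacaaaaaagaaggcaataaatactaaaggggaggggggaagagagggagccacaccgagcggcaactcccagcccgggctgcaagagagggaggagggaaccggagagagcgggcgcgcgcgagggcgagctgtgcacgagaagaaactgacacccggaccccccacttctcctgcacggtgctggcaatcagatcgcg
The capitals in Cyp26a1 are a DR5 of 17 bases at chr19:37697776-37697792, which ends 16 bases from the listed start and reads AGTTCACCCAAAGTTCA on the minus strand. A DR5 stood in 0.0974% of 32851 promoter windows of the same length, and any of the 3 repeats in 0.588%. The other members' windows held none of the repeats. A lone hexamer stood in 1 window of Aldh1a1, and 43.7% of all windows held at least 1. These are matches of letters, binding was not measured, and the windows of Aldh1a2 and Dhrs3 only lack these letters. The Aldh1a2 window is rich in G and C (77.6% of the 250 bases, against 61.6% for both Cyp26a1 and Dhrs3).

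The libraries held 19820401 and 21151729 estimated counts in fusion cells, and 19957932 and 19021386 in wild-type cells (parental, then empty vector, here and below). The 10 pluripotency markers, such as Pou5f1 and Nanog, were present in every library and summed to 6728 and 7910 TPM in fusion cells and to 5904 and 6598 TPM in wild-type cells; none of the 10 passed the test below. TPM is abundance scaled by transcript length and depth, so it serves for levels between genes, and CPM is a gene's counts scaled to library size with TMM, so it serves for 1 gene between libraries. Median log2 ratios of the members' 7 chromosomes lay between -0.09 and 0.06 in all 4 libraries.

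Levels of the 9 genes were low in wild-type cells apart from Crabp1, and Aldh1a2 led the order in both fusion libraries. Aldh1a2 stood at 255 and 75.5 TPM in fusion libraries 1 and 2, against 2.2 and 2.73 TPM in the parental and empty-vector libraries. In library 1 Crabp2 (49.4 TPM), Dhrs3 (36.8 TPM) and Crabp1 (33 TPM) came next, and in library 2 Crabp1 (46.2 TPM), Dhrs3 (15.6 TPM) and Crabp2 (13.6 TPM). Cyp26a1 followed in both, at 9.82 and 10.3 TPM. In wild-type cells Crabp1 came first at 42 and 35.4 TPM and Crabp2 second at 5.7 and 9.9 TPM, and the other 7 genes stood at 3.24 TPM or less. Their order there differed between the parental and empty-vector libraries, so neighbours among them are not separated. Aldh1a1 was at the bottom or next to it everywhere, at 0 and 0.04 TPM in fusion cells and 0.05 and 0.08 TPM in wild-type cells.

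**Figure D1:**
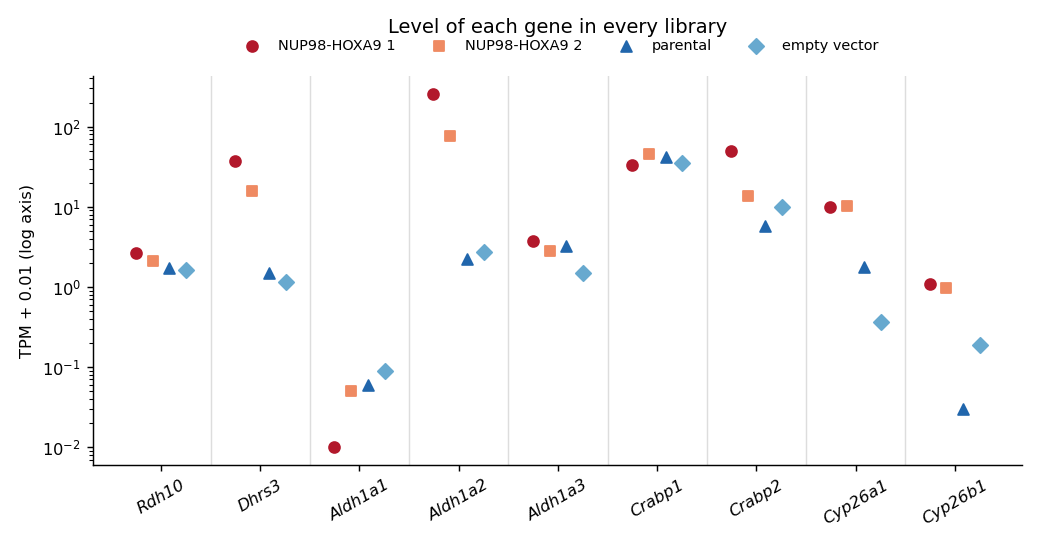
Level of each of the 9 genes in every library, as TPM plus 0.01 on a log axis; each point is 1 library, with the NUP98-HOXA9 libraries left of the parental and empty-vector libraries. Aldh1a2 stands at 255 and 75.5 TPM in the fusion libraries and below 3 TPM in the others, while Crabp1 lies between 33 and 46.2 TPM in all 4.

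The comparison of fusion with wild-type cells asked which of these genes changed with the fusion. Aldh1a2 and Dhrs3, which make retinoic acid and return its precursor to retinol, rose 62.9-fold and 19.6-fold. Cyp26a1 and Cyp26b1, which degrade the acid, stood 8.66-fold and 10-fold higher without passing the test. Rdh10, Aldh1a3, Crabp1 and Crabp2 did not pass either. Of the 9 genes 8 were tested, with edgeR's quasi-likelihood test adjusted over 16511 genes, and 2 rose and none fell. Among all genes tested 3.42% were called, 2.83% higher and 0.581% lower. In bulk RNA, a larger share of cells that express a gene and more of its RNA per cell cannot be told apart. Both fusion libraries lay above both wild-type libraries for 7 of the 8 and below them for none, where 27.1% of all genes tested lay above and 24.2% below. The median log2 fold change was 2.52 over the 8 members and 0 over all tested genes. Cyp26a1 and Cyp26b1 each reached the filter's 0.503 CPM in only 1 wild-type library, so they were tested because both fusion libraries reached it.

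Rdh10 encodes the retinol dehydrogenase that embryos need to make retinaldehyde (chromosome 1, 16105774 to 16133734, plus strand). It stood at 6.27 and 4.83 CPM in fusion cells and at 4.17 and 3.61 CPM in wild-type cells. The groups did not overlap but lay close together, and the difference, 0.51 on the log2 scale (SE 0.38; 2 libraries in each group, as for all values here), missed the threshold (adjusted p = 0.525). Dhrs3, the reductase that works against it (chromosome 4, 144892827 to 144928209, plus strand), stood at 32 and 13.5 CPM in fusion cells, against 1.09 and 1.22 CPM in wild-type cells. Both fusion libraries were far above both controls, and library 1 was the higher. The log2 fold change was 4.29 (SE 0.51, adjusted p = 0.0126). Against the empty vector alone it was 4.22 (adjusted p = 0.0774) and against the parental line alone 4.37 (adjusted p = 0.0725). DESeq2 (adjusted p = 5.89e-07 and 2.45e-07), edgeR without the robust option (0.0496 and 0.047) and edgeR without the filter (1.02e-11 and 2.69e-12) called it against each control, and DESeq2's size factors against the parental line alone (0.0479). Against both controls together it was 3.54 without fusion library 1, 4.78 without fusion library 2, and not called without the parental library (adjusted p = 0.0541). Per length, there was 14 and 7.42 times as much Dhrs3 as Rdh10 in the fusion libraries, against 0.877 and 0.712 times in the parental and empty-vector libraries.

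Transcripts for the second oxidation were mostly those of Aldh1a2 (also known as Raldh2), whose enzyme is the main source of retinoic acid in the early embryo (chromosome 9, 71215789 to 71296243, plus strand). It stood at 378 and 109 CPM in fusion cells and at 3.59 and 4.14 CPM in wild-type cells, from 7547 and 2381 counts in fusion cells against 69 and 78 in wild-type cells. Both fusion libraries were far above both controls, which were close to each other. The log2 fold change was 5.97 (SE 0.63, adjusted p = 0.00883). It was 5.88 against the empty vector alone (adjusted p = 0.14) and 6.08 against the parental line alone (adjusted p = 0.125). The adjusted p was 0.219 without the parental library, 0.233 without the empty-vector library and 0.194 with no filter on low counts. The call against each control alone depended on the fit: DESeq2 (adjusted p = 0.00127 against the empty vector and 0.000702 against the parental line) and edgeR without the robust option (0.0378 and 0.0322) made it, and the other 6 alternatives did not. The log2 fold change was 4.81 without fusion library 1 and 6.61 without fusion library 2, the ends of its range over the 14 alternatives.

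Aldh1a3, the enzyme of the eye and nasal region of the embryo (chromosome 7, 66390890 to 66427517, minus strand), stood at 6.62 and 3.51 CPM in fusion cells and at 3.44 and 1.7 CPM in wild-type cells. Fusion library 2 and the parental library were nearly level, and the difference of 0.98 (log2, SE 0.53) missed the threshold (adjusted p = 0.364). On the TPM scale the groups overlapped, at 3.72 and 2.82 TPM in fusion cells and 3.24 and 1.49 TPM in wild-type cells. Aldh1a1, the enzyme of adult epithelia and the dorsal retina (chromosome 19, 20492715 to 20643465, plus strand), had 0 and 1.2 estimated counts in fusion cells and 1.34 and 2 in wild-type cells. All 4 values lie below 3 counts, the limit that a count of 0 allows (0.142 to 0.158 CPM, counting error only), so Aldh1a1 was not detectable at this depth and was not tested; its reads may also be shared with its close paralog Aldh1a7. Summed over the 3 enzymes, Aldh1a levels were 259 and 78.4 TPM in fusion cells and 5.49 and 4.3 TPM in wild-type cells. Aldh1a2 supplied 98.6% and 96.3% of the sum in fusion cells, against 40.1% and 63.5% in the parental and empty-vector libraries.

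**Figure D2:**
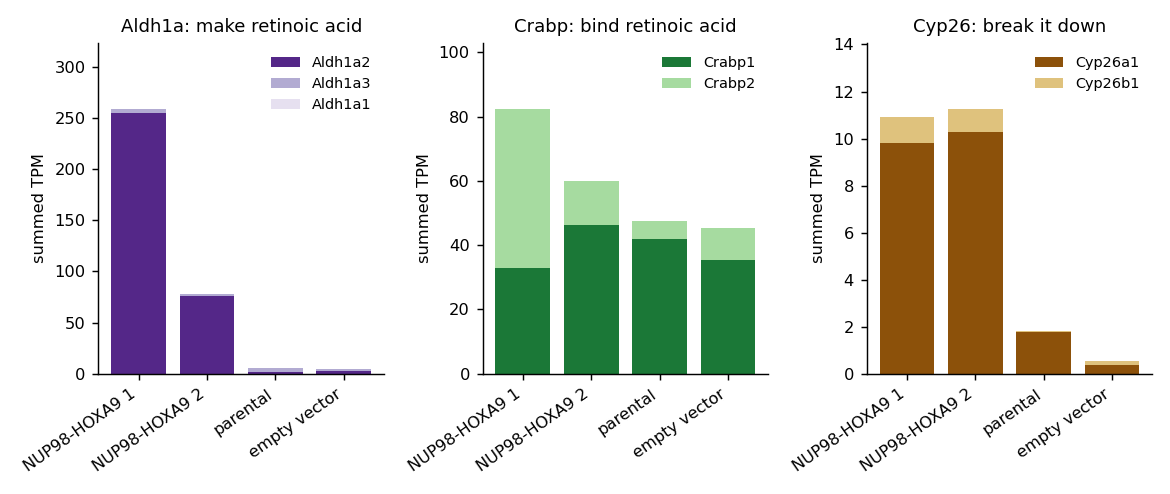
Summed TPM of the Aldh1a, Crabp and Cyp26 genes in each library, stacked by gene, with the NUP98-HOXA9 libraries left of the parental and empty-vector libraries; each bar is 1 library and each panel has its own axis from 0. Aldh1a reaches 259 and 78.4 TPM in the fusion libraries, nearly all of it Aldh1a2, while Cyp26 reaches 10.9 and 11.3 TPM and Crabp 82.4 and 59.8 TPM.

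The binding proteins differed from each other. Crabp1, a cytoplasmic carrier thought to pass retinoic acid to its breakdown (chromosome 9, 54764748 to 54773110, plus strand), stood at 16.3 and 22.1 CPM in fusion cells and at 22.8 and 17.8 CPM in wild-type cells. The groups overlapped (log2 -0.08, SE 0.28, adjusted p = 0.913), and the sign turned under 5 alternatives, among them the fit against the empty vector alone (log2 0.11). Crabp2, which delivers the acid to its nuclear receptors (chromosome 3, 87948666 to 87953376, plus strand), stood at 28.5 and 7.57 CPM in fusion cells and at 3.65 and 5.83 CPM in wild-type cells. Library 1 was high, and library 2 was only a little above the empty vector. The difference of 1.93 (log2, SE 0.62) missed the threshold (adjusted p = 0.145). It was 2.59 without fusion library 2 (adjusted p = 0.0321) and 0.67 without fusion library 1, and DESeq2 called it (adjusted p = 0.0209). Crabp2 made up 59.9% and 22.8% of the summed Crabp TPM in fusion cells, against 12% and 21.9% in wild-type cells.

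Both breakdown genes were low in wild-type cells and nearly equal in the fusion libraries. Cyp26a1, the hydroxylase whose promoter carries the DR5 printed above (chromosome 19, 37697798 to 37701536, plus strand), stood at 11.2 and 10.6 CPM in fusion cells and at 2.08 and 0.424 CPM in wild-type cells. The groups did not overlap, and the controls lay further apart than the fusion libraries did. The log2 fold change was 3.11 (SE 0.66, adjusted p = 0.0529). It was 4.67 against the empty vector alone, which passed (adjusted p = 0.0419), and 2.39 against the parental line alone (adjusted p = 0.0937). Cyp26a1 was the 1 member past the test against the empty vector, where 0.497% of all genes were called and 0.388% were higher. Against the parental line no member passed in edgeR's main fit, where 0.63% of all genes were called and 0.509% were higher. DESeq2 called 3 members there, and its share over all genes is not reported here. Without the parental library the log2 fold change of Cyp26a1 was 4.66. Against both controls together DESeq2 gave Cyp26a1 an adjusted p of 8.29e-05.

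Cyp26b1, the hydroxylase of the limb and gonad (chromosome 6, 84571414 to 84593908, minus strand), stood at 3.21 and 2.74 CPM in fusion cells and at 0.0521 and 0.53 CPM in wild-type cells, from 64 and 60 counts in fusion cells against 1 and 10 in wild-type cells. Both fusion libraries were above both controls, and the parental library's 1 count is below the 3 counts taken as detectable, so folds against it are not exact. The difference of 3.33 (log2, SE 0.8) missed the threshold (adjusted p = 0.0733). It passed without the empty-vector library (adjusted p = 0.0375), where it rests on that 1 count, and DESeq2 gave an adjusted p of 0.0134. With DESeq2, 5 of the 8 tested members were called higher, where 5.57% of all genes were. Summed over both, Cyp26 levels were 10.9 and 11.3 TPM in fusion cells and 1.8 and 0.54 TPM in wild-type cells. The ratio of summed Aldh1a to summed Cyp26 TPM was 23.7 and 6.96 in fusion cells and 3.05 and 7.96 in wild-type cells, so the groups overlapped in that ratio.

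**Figure D3:**
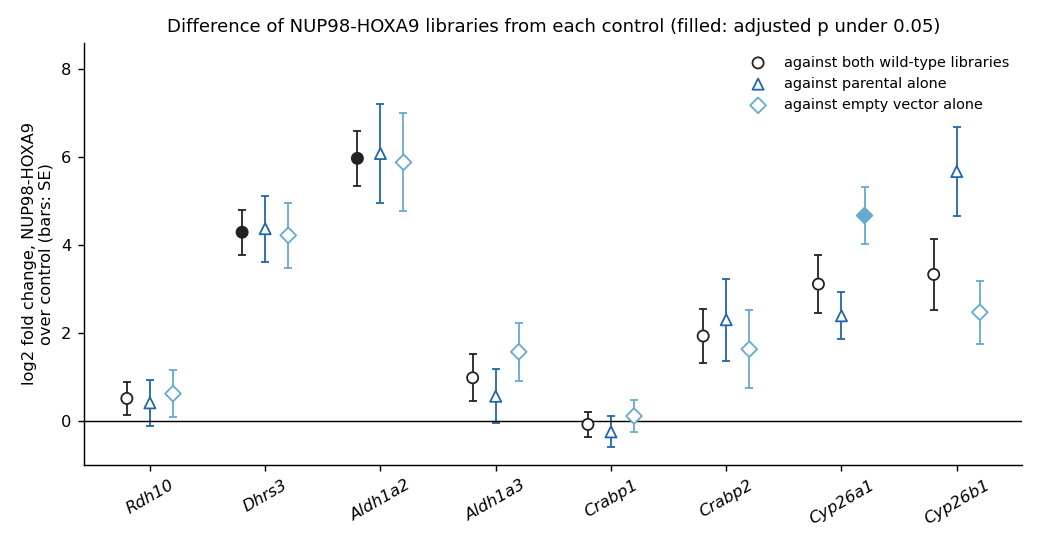
Log2 fold change of the NUP98-HOXA9 libraries over both wild-type libraries, over the parental library alone and over the empty-vector library alone, for the 8 tested genes; bars are the SE, and filled points passed an adjusted p of 0.05 in edgeR. Aldh1a2 and Dhrs3 passed against both controls together (log2 5.97 and 4.29), and Cyp26a1 passed against the empty vector alone (log2 4.67); the 3 comparisons share the fusion libraries, and the Cyp26b1 point over the parental library rests on 1 count there.

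The fusion libraries differed from each other in some of these genes and not in others. Library 1 stood above library 2 by 3.48-fold in Aldh1a2, 3.77-fold in Crabp2 and 2.37-fold in Dhrs3 on the CPM scale. These 3 of the 8 tested members were at least 2-fold higher in library 1 on CPM plus 1, where 1.48% of all genes tested were, and none was 2-fold lower, where 3.33% were. Cyp26a1 and Cyp26b1 were within 1.06-fold and 1.17-fold of each other in the same libraries. Between the controls, Cyp26a1 in the empty vector was 0.204 times its level in the parental line, the 1 member at least 2-fold apart on CPM plus 1, where 3.98% of all genes were. With 1 library of each kind, these differences have no replicate check.

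The tables also give each gene's transcript length, averaged over its annotated transcripts by their estimated abundance. Aldh1a2 and Crabp1 have 1 transcript each in the tables, so their lengths of 2264 and 802 bases could not vary. Aldh1a3, with 5 transcripts, had mean lengths of 2702 and 1973 bases in fusion cells and 1496 and 1718 bases in wild-type cells. Its longer mean in fusion library 1 stands beside a TPM that was closer to the controls than its CPM was. Rdh10, with 2 transcripts, had 3587 bases in both fusion libraries, against 3331 and 3325 bases in wild-type cells. Dhrs3, with 7 transcripts, had 1359 and 1398 bases in fusion cells, between the 1052 bases of the parental and the 1624 bases of the empty-vector library, where it rested on 21 and 23 counts. No test was made of these lengths.

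**Figure D4:**
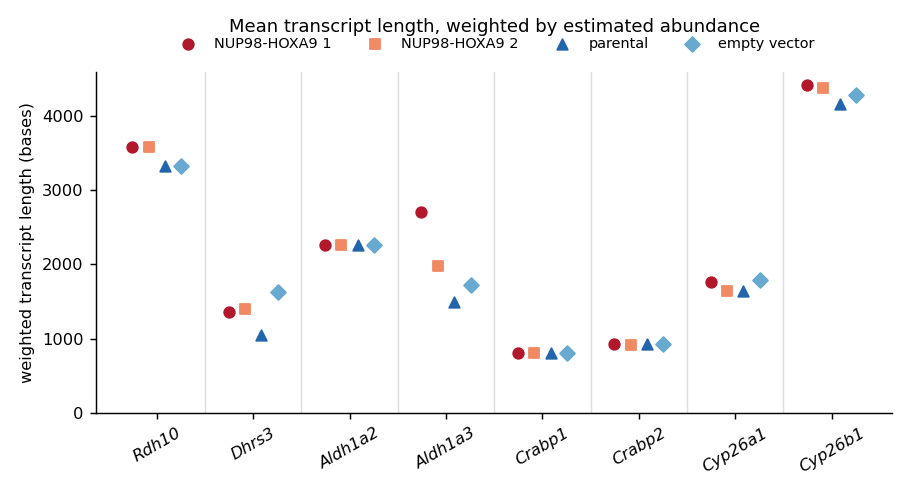
Mean transcript length in bases of 8 members, weighted by estimated transcript abundance, in every library; each point is 1 library, with the NUP98-HOXA9 libraries left of the parental and empty-vector libraries. Aldh1a3 reaches 2702 and 1973 bases in the fusion libraries and 1496 and 1718 bases in the wild-type libraries, while single-transcript Aldh1a2 and Crabp1 do not vary.

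Around these 9 genes, the rest of retinoid uptake, storage and metabolism moved little. Of 35 listed genes 23 were tested, 1 rose and 1 fell, and the median log2 fold change was 0.41. Among all genes tested 2.83% were called higher and 0.581% lower. Stra6, the cell-surface receptor that takes up retinol, stood at 7.52 and 3.92 CPM in fusion cells and at 0.313 and 0.53 CPM in wild-type cells, and rose (log2 3.74, SE 0.58, adjusted p = 0.0261). Fabp5, a fatty acid binding protein that also binds retinoic acid, stood at 21 and 21.8 CPM in fusion cells and at 45.4 and 49.7 CPM in wild-type cells, and fell (log2 -1.15, SE 0.2, adjusted p = 0.0351). Neither passed against the empty vector alone (adjusted p = 0.112 for Stra6 and 0.0995 for Fabp5). Adh5, a broadly expressed alcohol dehydrogenase, was the other gene of the list at 50 TPM or more beside Fabp5, at 318 and 306 TPM in fusion cells and 332 and 427 TPM in wild-type cells (adjusted p = 0.312). Lrat, which stores retinol as esters, did not pass (log2 0.73, adjusted p = 0.568).

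Among 13 receptors and coregulators, all tested, Rarb, Rxra and Nrip1 rose and none fell, with a median log2 fold change of 0.15. Over all genes tested 2.83% were called higher and 0.581% lower. Against the empty vector alone none of the 3 passed (adjusted p = 0.0537 for Rarb, 0.0763 for Rxra and 0.102 for Nrip1). Against the parental line alone Rarb did (0.0402) and Rxra and Nrip1 did not (0.0937 and 0.0859). Of all genes tested, 0.388% were called higher against the empty vector and 0.509% against the parental line. Rarb, the retinoic acid receptor that is itself a retinoic acid target, stood at 15.1 and 7.61 CPM in fusion cells and at 0.156 and 0.371 CPM in wild-type cells (log2 5.4, SE 0.62, adjusted p = 0.0118). Neither wild-type library reached the filter for Rarb. It was tested only because both fusion libraries did, and could hardly have been called lower. Rxra, the receptors' partner, stood at 47.8 and 34.7 CPM in fusion cells and at 13.3 and 11 CPM in wild-type cells (log2 1.76, adjusted p = 0.0236). Nrip1, a corepressor that retinoic acid induces, stood at 43.7 and 24.7 CPM in fusion cells and at 6.67 and 7.37 CPM in wild-type cells (log2 2.28, adjusted p = 0.0228). Rarg, the most abundant of the retinoid receptors here by CPM and by TPM, stood at 461 and 308 CPM in fusion cells and at 125 and 240 CPM in wild-type cells. Both fusion libraries lay above both controls, and the difference of 1.07 (log2, SE 0.34) missed the threshold (adjusted p = 0.137). Rara stood at 63.3 and 71.7 CPM in fusion cells and at 66.7 and 80.7 CPM in wild-type cells and did not pass (adjusted p = 0.781).

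Of 17 known retinoic acid response genes, 16 were tested and 10 rose, among them Stra8, Cdx1, Hoxa4, Hoxb1, Hoxb4, Rarb, Nrip1, Stra6 and Zfp703. Among all genes tested 2.83% were called higher. In wild-type cells only 7 of these 16 averaged 1 CPM or more, and the other 9 could hardly have been called lower. Stra8, Hoxa4, Hoxb1, Hoxb4 and Rarb reached the filter in neither wild-type library, and Stra6 in only 1. These genes were therefore tested because both fusion libraries reached it, so the count of 10 is partly set by that filter. Stra8, a germ cell gene named for its induction by retinoic acid, stood at 142 and 162 CPM in fusion cells and at 0.469 and 0.318 CPM in wild-type cells (log2 8.57, SE 0.29, adjusted p = 0.000222). Zfp703, a zinc finger repressor, stood at 17.7 and 7.98 CPM in fusion cells and at 1.82 and 1.27 CPM in wild-type cells (log2 3.05, SE 0.5, adjusted p = 0.0311). Tgm2, a transglutaminase induced by retinoic acid, stood at 16.5 and 19.2 CPM in fusion cells and at 7.19 and 2.44 CPM in wild-type cells and did not pass (log2 1.89, adjusted p = 0.0912). Rarb, Nrip1 and Stra6 stand in other lists as well, so the lists are not separate evidence.

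**Figure D5:**
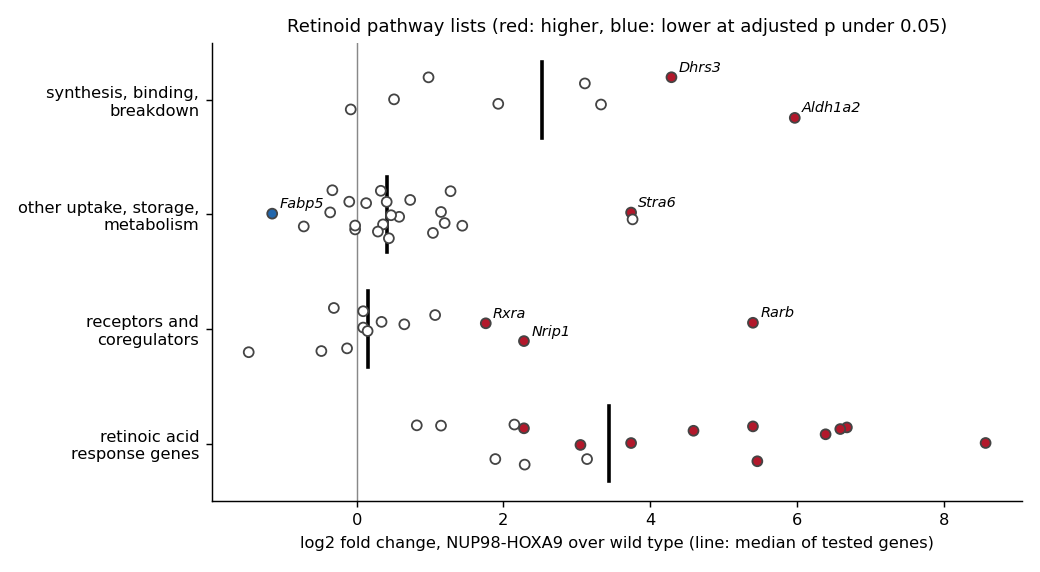
Log2 fold change of NUP98-HOXA9 over wild-type libraries for each tested gene of the 4 retinoid lists; each point is 1 gene, red points were higher and blue points lower at an adjusted p of 0.05 in edgeR, open points did not pass, and black lines are medians. Aldh1a2 and Dhrs3 passed in the first list, Stra6 and Fabp5 among 23 other metabolic genes, Rarb, Rxra and Nrip1 among 13 receptors and coregulators, and 10 of 16 response genes.

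The genes most like Aldh1a2 and Dhrs3 over the 4 libraries were ranked by the distance between centred log2(CPM + 1) profiles among the 10596 genes that averaged 5 CPM or more. Nearest to Aldh1a2 were Cdx1 (distance 0.514), a caudal-type homeobox gene, then Hoxa5 (0.663) and Hoxa3 (0.757). Cdx1 stood at 116 and 42.7 CPM in fusion cells and at 1.09 and 0.53 CPM in wild-type cells, so it too was higher in library 1 than in library 2. Nearest to Dhrs3 were Hal (0.064), which encodes histidine ammonia-lyase, then Rarb (0.256) and Rapgef3 (0.302), an exchange factor driven by cyclic AMP. Hal stood at 19.1 and 7.34 CPM in fusion cells and at 0.26 and 0.318 CPM in wild-type cells. With 4 libraries, likeness of this kind describes these samples only.

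Markers of primitive and visceral endoderm stood higher in fusion than in wild-type cells, as Aldh1a2 and Dhrs3 did. Of 16 markers 13 were tested and 12 rose, where 2.83% of all genes tested were called higher. Between the fusion libraries the markers did not share 1 order. Hnf4a was higher in library 1 (58.7 and 8.98 CPM), as Aldh1a2 was, and Cubn in library 2 (7.27 and 82.2 CPM). Of the 13, 6 averaged 1 CPM or more in wild-type cells, and Gata6, Sox17, Sox7 and Foxa2 were tested only because the fusion libraries reached the filter, so these could hardly have been called lower. Gata4, Col4a1 and Lama1, which both wild-type libraries also held above the filter, were among the 12. The summed level of the 16 was 557 and 479 TPM in fusion cells and 114 and 127 TPM in wild-type cells. The late visceral endoderm markers Afp (0 and 0.17 TPM in fusion cells, 0 and 0.12 TPM in wild-type cells) and Ttr (0.27 and 1 TPM in fusion cells, 0 TPM in both wild-type libraries) were at or near 0. Trophectoderm markers summed to 235 and 143 TPM in fusion cells and to 148 and 70.1 TPM in wild-type cells, with 0 of 6 tested past the test. Mesoderm markers summed to 122 and 117 TPM in fusion cells and to 55.4 and 70.8 TPM in wild-type cells, most of it Tcf15. Of the 6 tested, 0 passed. Both fusion libraries lay above both wild-type libraries for 2 of the 6 and below for 1, T. It stood at 1.9 and 1.23 CPM in fusion cells and at 7.19 and 4.99 CPM in wild-type cells. Neural markers summed to 90.7 and 107 TPM in fusion cells and to 95 and 110 TPM in wild-type cells, most of it Tubb3. Sox1 was the 1 of 5 tested that rose. Both fusion libraries lay above for 1 of the 5 and below for 3, with a median log2 fold change of -1.3. Over all genes tested, 27.1% lay above and 24.2% below. Fibroblast markers summed to 41.7 and 57 TPM in fusion cells and to 33.1 and 22.7 TPM in wild-type cells, with Pdgfrb the 1 of 7 that rose. Germ cell markers summed to 72.2 and 105 TPM in fusion cells and to 125 and 112 TPM in wild-type cells, where Dazl rose and Prdm1 fell. The 2-cell-like markers were highest in fusion library 2 (26.3 and 129 TPM in fusion cells, 1.66 and 4.18 TPM in wild-type cells), with 4 of 5 tested higher. Zfp352, Usp17la and Tcstv3 reached the filter in neither wild-type library, so they were tested only because both fusion libraries did. The part of cells with any of these markers in the differences of the 9 genes was not tested.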

How the data were processed

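The authors deposited, for each of 4 libraries, a gene table with expected counts (estimated read counts), TPM, FPKM and transcript lengths, per the file headers. The labels' protocols name a stranded poly(A) kit. STAR 2.7.10a, RSEM 1.3.3, DESeq2 1.36.0 and GRCm38/mm10 are listed in the submitters' processing notes with no role or order; the annotation and the strand setting of counting are not stated there. The deposited FPKM column was left aside, and the deposited TPM served for levels and, in alternatives, for limma.

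Of 55401 gene identifiers, 55141 (99.5%) matched GENCODE M21. Expected counts were rounded and fitted over the whole table with edgeR 4.0.16 (R 4.3.3): TMM scaling, filterByExpr at a minimum count of 10, a robust quasi-likelihood fit of 2 fusion against 2 wild-type libraries, and Benjamini-Hochberg adjustment over 16511 genes at 0.05. Biological variation was estimated at 25.6% (common coefficient), on 2 residual degrees of freedom. A fit with 3 groups gave each control alone, with its spread taken from the fusion libraries. The SE is the absolute log2 fold change divided by the square root of the F statistic, and likely understates the error of genes with few counts. Alternatives used DESeq2 1.42.0, limma 3.58.1 on log2 of TPM plus 1 or plus 0.1 (genes at 1 TPM or more in 2 libraries), other scalings and filters, and each library left out. The fits were also run on simulated counts, where all genes shared the same coefficient of variation and both controls had the same expected level. That run cannot speak to the pooling of the 2 controls, and its outcome is not reported here.

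The members and gene lists were chosen with earlier results of these data known. All 9 members are named, up to 8 genes past the threshold in a list, metabolic genes at 50 TPM or more, and the 3 genes most like each member that passed. Lrat, Rara, Rarg, Ppard, Tgm2, Rdh1, Rdh11 and the marker genes given were named beyond that rule, after their values were seen, and some genes of the lists are not reported here. A gene with fewer than 3 counts in a library was taken as not detectable; this floor covers counting error only. Tables were read with pandas 2.3.3 and plots drawn with matplotlib 3.10.9.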

Additional observations from a re-analysis of the deposited data

How the results depend on the processing

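In the fit of fusion against wild-type libraries, 6 of the 8 tested members kept the direction of their log2 fold change under 14 alternatives, and Cyp26b1 under 12, as it was left out of limma's filter; Crabp1 did not. Its log2 fold change was 0.11 against the empty vector alone, 0.02 by limma on TPM with either pseudocount, and between -0.32 and 0.12 with 1 library left out. Members called higher numbered 2, and 5 by DESeq2's Wald test, 1 against the empty vector alone, 0 against the parental line alone, and 1 to 3 with 1 library left out (1 without the parental library). Over all genes 468 rose and 96 fell; these counts were 919 and 436 by DESeq2, 1315 and 631 with no filter, 64 and 18 against the empty vector alone and 84 and 20 against the parental line alone. By limma on TPM 51 fell with a pseudocount of 1, and 246 rose and 27 fell with 0.1. With 1 library left out, 155 to 368 rose and 10 to 192 fell (the lowest without fusion library 1); the lone library of a group is then assumed to vary like the others. Against the empty vector in the fit with 3 groups, 1 member was higher, and 3 by DESeq2 or with a fit that is not robust, 4 with no filter, and 0 with library totals or by limma with either pseudocount. Against the parental line 0 were, and 3 by DESeq2, 2 with DESeq2's size factors or a fit that is not robust, and 4 with no filter. There, limma with a pseudocount of 0.1 gave Aldh1a3 a log2 fold change of -7.8e-05. With AGGTCA as the only hexamer, 0 members' promoter windows held a direct repeat, in place of 1. The cause of these shifts was not tested. No paired analysis was possible because the wild-type libraries carry no replicate numbers in the labels. Depth limits Aldh1a1 and the wild-type values of Cyp26b1 and Cyp26a1, which rest on 1 to 40 counts.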

Other observations

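Crabp2 and Fabp5 both encode carriers of retinoic acid: CRABP2 is known to carry it to the retinoic acid receptors and FABP5 to PPARD. Per length, the ratio of Crabp2 to Fabp5 was 1.49 and 0.383 in fusion cells and 0.0875 and 0.129 in wild-type cells, so the groups did not overlap and the fusion libraries differed more than the controls did. Fabp5 was alike in the fusion libraries (33.1 and 35.6 TPM, against 65.2 and 76.5 TPM in wild-type cells), and Crabp2 was not (49.4 and 13.6 TPM, against 5.7 and 9.9 TPM in wild-type cells). Ppard itself stood at 43.4 and 43.2 CPM in fusion cells and at 32.1 and 49.5 CPM in wild-type cells (adjusted p = 0.9). The estimated counts of Fabp5 are not whole numbers, so some of its reads were shared with other genes. The ratio was chosen after its values were seen, and no test was made of it.

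Rdh1, another retinol dehydrogenase, had a log2 fold change of 3.76 (SE 0.82) that did not pass (adjusted p = 0.0564). It stood at 0.852 and 2.14 CPM in fusion cells and at 0.156 and 0.053 CPM in wild-type cells, and unlike Aldh1a2 it was higher in fusion library 2. The wild-type values rest on 3 counts and 1 count, so its fold is not exact. Neither wild-type library reached the filter for Rdh1, which was tested only because both fusion libraries did. Rdh11 was highest in the parental library, at 20.3 and 27.4 CPM in fusion cells and 54.4 and 24.2 CPM in wild-type cells (adjusted p = 0.364).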
